A study of Mus musculus with 12 samples.

Results

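Interferon beta and the chains of the interferon receptors were followed in mouse bone marrow-derived dendritic cells (BMDCs) that kept or lacked CTCF, before and after LPS. The genes are Ifnb1, which encodes interferon beta, Ifnar1 and Ifnar2, which encode the chains of the receptor for type I interferon, and Ifngr1 and Ifngr2, which encode the chains of the receptor for interferon gamma. They were taken by gene symbol and are 5 of the 55335 genes quantified in each library.

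RNA was sequenced from 12 libraries in 4 groups of 3 replicates. All the cells came from C57BL/6 mice of both sexes, 8 to 12 weeks old, that carry CreER, a tamoxifen-dependent Cre recombinase expressed from the Rosa26 locus. WT cells had unmodified Ctcf alleles (CreER), whereas both Ctcf alleles of KO cells carried loxP sites (CreER;CTCF fl/fl), between which Cre deletes once 4-hydroxytamoxifen (4-OHT) is present. Marrow was cultured with GM-CSF for 6 days, the 4-OHT for deletion was added on the first day, and floating CD11c-positive cells were collected. WTL and KOL are WT and KO cells that had 3 h of LPS (100 ng/ml), while WT and KO libraries came from unstimulated cells. The study set out to learn what CTCF does to gene expression in resting and activated BMDCs. Because deletion starts at the beginning of culture, effects on differentiation and on the finished cell cannot be told apart, and the descriptions do not settle whether WT cultures received 4-OHT, so that an effect of the drug on Cre-expressing cells cannot be told apart from loss of CTCF.

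Total expected counts were 13058792, 14518230 and 14189774 in WT replicates 1 to 3, 12769773, 16586334 and 15736481 in WTL, 14584606, 13544715 and 14152932 in KO, and 15436288, 14659973 and 15957342 in KOL. The libraries that stood furthest from the others of their group were WTL replicate 2 and KOL replicate 2. In WTL replicate 2, ribosomal RNA genes took 5.165% of the counts against 0.383% to 1.185% elsewhere. Counts per gene differed between KOL replicates 1 and 3 by a chi-square of 8.78 per gene, and between replicate 2 and the others by 29.8 and 31.4. For WTL the values were 31.1 between replicates 1 and 3, and 86 and 80.3 between replicate 2 and the others, against at most 4.75 within WT and 1.92 within KO. WTL replicates 1 and 3 thus differed about as much as KOL replicate 2 did from its group. Leaving out any single WTL replicate changed no call for the 5 genes in any comparison, and the results that change without KOL replicate 2 are given with both values.

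Interferon beta is secreted when pattern recognition receptors sense microbial products; in dendritic cells, LPS reaches it through TLR4, the adaptor TRIF and the factor IRF3. The cytokine binds a receptor of the IFNAR1 and IFNAR2 chains on the same or neighbouring cells, and the kinases TYK2 and JAK1 then switch on transcription factors, STAT2 and IRF9 among them, which drive a broad antiviral program. Interferon gamma, made mainly by T cells and NK cells, binds IFNGR1, and IFNGR2 joins to bring JAK2, which leads to genes of macrophage and dendritic cell activation.

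The targeted gene itself was read first. Ctcf normalized counts, which are counts scaled to a common library size by edgeR's TMM factors, were 1051, 987 and 974.9 in WT and 569.7, 562 and 516 in KO. Under LPS they were 886, 817 and 745 in WTL and 563.5, 530.0 and 526 in KOL. The KO values were all under the WT values, as the KOL values were under the WTL values. The log2 fold change of Ctcf was -0.87 (SE 0.08, n = 3 per group) for KO against WT by the quasi-likelihood test of edgeR, adjusted for all tested genes after Benjamini and Hochberg (adjusted p = 3.94e-07). It was -0.59 (SE 0.08) for KOL against WTL (edgeR adjusted p = 2.39e-05). These are sums over all exons of the gene, so transcripts that lack the deleted part still count.

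The label of the cells was compared with marker genes. All 6 dendritic cell markers (Itgax, H2-Aa, Cd74, Flt3, Zbtb46 and Ccr7) were measured, and their summed level was 9355 ± 196 TPM in WT, 10573 ± 1594 in WTL, 6550.3 ± 152 in KO and 11274 ± 1890.0 in KOL (mean ± SD, n = 3), with Cd74 the most abundant. These markers did not move together: in KO against WT Itgax, the gene of CD11c, was higher (log2 fold change 0.83, SE 0.08, edgeR adjusted p = 1.29e-06), H2-Aa (-1.15, SE 0.08, edgeR adjusted p = 4.08e-08), Flt3 and Ccr7 were lower, and Cd74 (-0.18, 95% interval -0.48 to 0.12) and Zbtb46 were called only in a fit of the compared groups alone. TPM is a level per transcript length, scaled by RSEM to the same sum in every library. Macrophage and monocyte markers, all 6 of them measured and led by Csf1r, summed to 725, 774 and 742 TPM in WT, 511, 362 and 365 in WTL, 989.6, 1016 and 1035 in KO, and 372, 504 and 387 in KOL. In KO against WT 2 of the 6 were higher, Csf1r (0.73, SE 0.12, edgeR adjusted p = 2.29e-04) and Ly6c2 (1.72, SE 0.09, edgeR adjusted p = 1.65e-09), and 3 lower, Adgre1 (-0.81, SE 0.13, edgeR adjusted p = 1.72e-04), Mertk and Fcgr1. These cells share most such markers with the dendritic cells of GM-CSF cultures. In KO against WT, 22.2% of all tested genes were higher and 22.4% lower.

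Neutrophil markers, with 3 of 5 tested and S100a8 the most abundant, summed to 385, 362 and 377 TPM in WT, 419, 330.5 and 421 in WTL, 205, 223 and 191 in KO, and 284, 329.97 and 323 in KOL. Plasmacytoid dendritic cells are a strong source of interferon alpha, and their markers summed to 8.26, 8.83 and 9.46 TPM in WT, 37.9, 29.8 and 30.2 in WTL, 7.98, 7.83 and 6.83 in KO, and 20.5, 23.9 and 18.5 in KOL. Most of that was Tcf4, and the defining markers Siglech and Klk1 had at most 4 and 1 counts in any library. The 2 tested markers moved apart in KO against WT. Ccr9 was higher (log2 fold change 2.38, SE 0.31, edgeR adjusted p = 2.01e-05) and Tcf4 lower (-0.92, SE 0.09, edgeR adjusted p = 1.39e-06). Summed levels were at most 1.15 TPM for 4 T cell markers, 3.02 for 4 NK cell markers (Klra8 at 0), 1.13 for 3 B cell markers, 0.72 for 3 basophil and mast cell markers and 2.22 for 3 stromal markers. The stromal sum was highest in WTL replicate 2 and was 1.71 TPM in KOL replicate 2. In bulk RNA, fewer cells of a type and less RNA per cell cannot be told apart, and the part that dendritic cell, macrophage and neutrophil markers play in the KO values of the interferon genes was not tested.

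All 5 genes passed the filter on low counts, with 14008 genes tested. LPS changed all 5 in WT cells, where 4 were called higher at an adjusted p under 0.05 (Ifnb1, Ifnar1, Ifnar2 and Ifngr2, whose direction flips under other scalings; 30.0% of all tested genes were higher) and 1 lower (Ifngr1; 30.2% were lower). Depletion of CTCF in unstimulated cells raised 2 (Ifnar1, Ifngr2; 22.2% of all tested genes) and 1 was called lower (Ifnb1, on 11 counts against 0; 22.4%). Among LPS-treated cells, KOL had 1 of the 5 higher than WTL (Ifngr1; 21.4% of all tested genes) and 1 lower (Ifnar2; 23.3%). In CTCF-deficient cells, LPS raised 2 (Ifnb1, Ifnar2; 33.6%) and lowered 1 (Ifngr1; 33.9%). The interaction, which is the log2 response to LPS in KO minus that in WT, was called positive for 2 (Ifnb1, on few resting counts, and Ifngr1; 8.70% of all tested genes) and negative for 2 (Ifnar1, Ifnar2; 8.75%). Over all genes the interaction was called for 2443, and for 3769 without KOL replicate 2. The comparisons share samples, WT and WTL or KO and KOL libraries serving in several of them.

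The median log2 fold change of all 14008 tested genes, against which the medians of gene lists are read, was -0.02 for WTL against WT, -0.01 for KO against WT, -0.03 for KOL against WTL, -0.02 for KOL against KO and -0.02 for the interaction. Changes are relative to this bulk of genes, since the scaling sets its level. Scaling by total counts without TMM, chosen after seeing the data, moved the median log2 fold change of all tested genes by -0.51 for WTL against WT, -0.11 for KO against WT, -0.37 for KOL against KO and 0.14 for the interaction. In limma's fit of log2(TPM + 1) the shifts were -0.42 for WTL against WT and -0.36 for KOL against KO. The calls for Ifnar1, Ifnar2 and Ifngr2 with LPS depend on this choice, and the size of the fall of Ifngr1, as given for each gene.

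Ifnb1, the ligand, lies on chromosome 4 at 88522025 to 88522774 (minus strand, mm10, GENCODE M21) as a single exon of 750 bases. Its expected counts were 2, 4 and 5 in WT replicates 1 to 3 and 101, 137 and 152 in WTL. All 3 stimulated WT libraries stood far above all 3 unstimulated ones, where Ifnb1 was barely detected. KO libraries held 0, 0 and 0 counts, and KOL libraries 109, 78 and 136. Each KO library was thus under the lowest WT library, and each KOL library was far above every KO library, with the KOL values on both sides of the lowest WTL value.

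Ifnb1 rose 44.9-fold with LPS in WT cells (log2 fold change 5.49, SE 0.29, 95% interval 4.85 to 6.13, edgeR adjusted p = 6.09e-09). Summed over 3 libraries a group, 390 counts faced 11, a depth-adjusted ratio of 46.8 with an exact counting interval of 25.9 to 94.5, which covers counting error only. In CTCF-deficient cells the rise was at least 31.7-fold in every KOL library, taken against a floor of 3 counts per library (edgeR adjusted p = 4.16e-09). Normalized counts of Ifnb1 were 136, 148 and 162 in WTL and 117, 91.3 and 145 in KOL, so the groups overlapped. The log2 fold change of KOL against WTL was -0.33 (SE 0.18, 95% interval -0.72 to 0.05, edgeR adjusted p = 0.152). Without KOL replicate 3 it was -0.51 (edgeR adjusted p = 0.0458), and without KOL replicate 2 it was -0.18 (edgeR adjusted p = 0.389).

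At rest, KO against WT had an adjusted p of 0.00466 for Ifnb1 by edgeR's quasi-likelihood test, on 11 counts in 3 WT libraries and 0 in KO. A count of 0 allows up to 3 counts in a library, as many as WT replicate 1 held or more, so that no fold is given and the difference is not built on further. The interaction had an edgeR adjusted p of 0.022, but it rests on the same few resting counts and is not read as a differing response. That call was lost without WT replicate 3 (adjusted p = 0.051), KO replicate 1 (0.052) or KO replicate 3 (0.0522), with glmTreat (0.0508) and in limma's fit of log2(TPM + 1) (0.45).

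**Figure D1:**
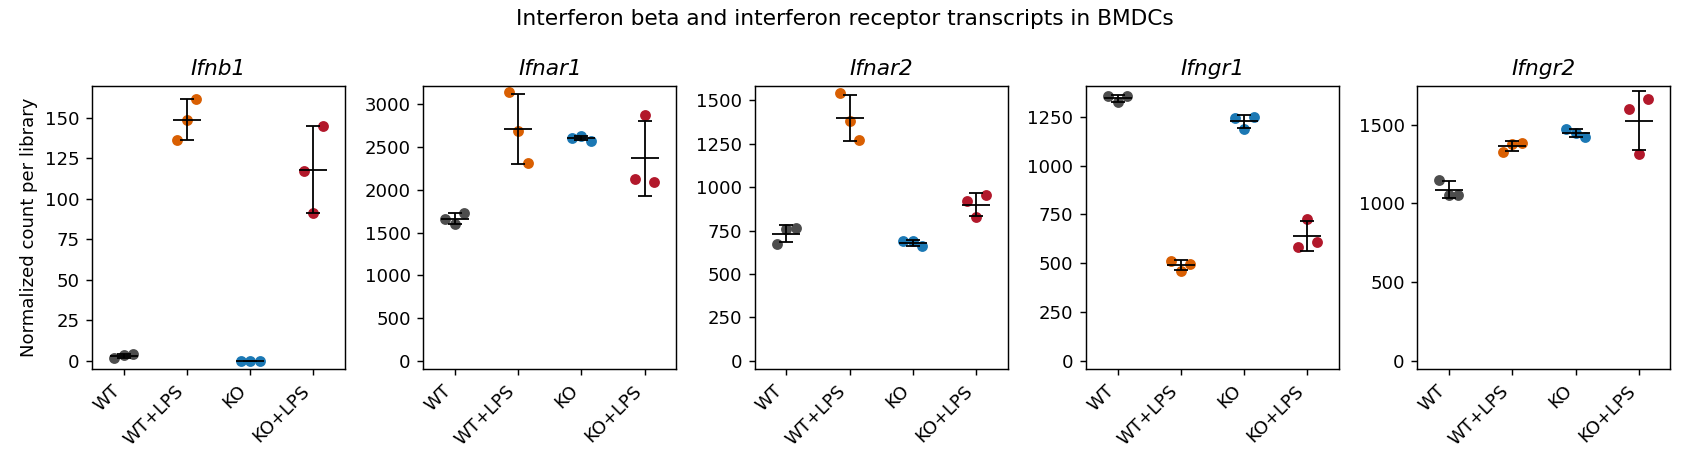
Normalized counts of Ifnb1, Ifnar1, Ifnar2, Ifngr1 and Ifngr2 in each of the 12 libraries, by group (points, libraries; long lines and bars, mean and SD, n = 3). Ifnb1 was at 0 in all KO libraries and at 91.3 to 162 in stimulated ones (WTL and KOL, drawn as WT+LPS and KO+LPS), and Ifngr1 was lower in every stimulated library than in every unstimulated one.

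The other interferon genes had almost no reads. Of 20 other ligand genes, 13 were at 0 in all 12 libraries, 5 had at most 3 counts in every library, and Ifna4 and Ifnk went above that, with at most 8 and 5 counts in a library. Ifnb1, with up to 152 counts, was the interferon gene that these cells expressed at a measurable level. Ifng, the ligand of IFNGR1 and IFNGR2, had at most 2 counts in a library. None of the 20 was tested, and reads of the near-identical interferon alpha genes may not be assigned to the right copy.

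The promoters of the 5 genes were matched by symbol in RefSeq (GRCm38.p6), from 250 bases before to 50 after the start. Those of Ifnb1, Ifnar2 and Ifngr1, chosen after their values were seen, are shown in part. Motifs were searched on both strands: GGGNNNNNCC for NF-kB, GAAANNGAAA for the IRF repeat, TTCNNNGAA for GAS and TGANTCA for AP-1. Of 32851 promoters of the same length, 50.8% held the NF-kB letters, 3.4% the IRF repeat, 8.3% GAS and 7.8% AP-1. Among the 5 genes, 4 held the NF-kB letters (not Ifnar1), 2 held GAS (Ifnar1 and Ifnar2), and 0 held the IRF repeat or AP-1. Only these letters at these spacings were searched, so 0 does not mean that sites of another form are absent. The stretch of Ifnb1 shown here has GAAA units at another spacing. Ifnb1 held an NF-kB match on its own strand from -116 to -107 and another on the opposite strand from -93 to -84. Positions count from the RefSeq start, which for Ifnb1, Ifnar1 and Ifngr2 lies upstream of the GENCODE start given for the gene. GC content was 42.7% with 3 CpG in the window of Ifnb1, against 57.0% to 74.3% and 14 to 31 CpG at the receptor genes and a median of 52.7% and 7 over all promoters. The stretch from 250 to 61 bases before the start of Ifnb1 (chr4:88522855-88523044, minus strand), Ifnar2 (chr16:91372533-91372722, plus strand) and Ifngr1 (chr10:19591699-19591888, plus strand) is given for each, 5′ to 3′, with NF-kB and GAS matches in capitals. A match is a run of letters, and binding was not measured.
Ifnb1: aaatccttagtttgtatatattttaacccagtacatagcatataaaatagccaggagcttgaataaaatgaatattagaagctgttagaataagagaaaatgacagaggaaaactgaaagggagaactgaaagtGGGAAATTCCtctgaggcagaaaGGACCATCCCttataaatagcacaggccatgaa
Ifnar2: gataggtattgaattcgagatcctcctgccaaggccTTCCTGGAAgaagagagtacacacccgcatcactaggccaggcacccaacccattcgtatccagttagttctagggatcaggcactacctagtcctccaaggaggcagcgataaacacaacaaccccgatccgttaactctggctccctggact
Ifngr1: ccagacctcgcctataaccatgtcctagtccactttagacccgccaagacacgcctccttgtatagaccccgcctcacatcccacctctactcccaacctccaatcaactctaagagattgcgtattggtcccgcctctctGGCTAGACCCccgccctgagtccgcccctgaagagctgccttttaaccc

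Ifnar1, the chain that carries TYK2, lies on chromosome 16 at 91485238 to 91507441 (plus strand). Its normalized counts were 1653, 1605 and 1731 in WT and 3137, 2683 and 2310.5 in WTL. In KO they were 2608, 2629.8 and 2574, and in KOL 2125, 2877 and 2094. WT libraries were the lowest of all 12, KO libraries lay within the range of WTL, and KOL libraries overlapped both KO and WTL. KOL replicate 2 was the highest of its group and the others were close to each other.

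CTCF depletion raised Ifnar1 1.57-fold in unstimulated cells (log2 fold change 0.65, SE 0.12, edgeR adjusted p = 5.68e-04, higher in 3 of 3 libraries). LPS raised it 1.63-fold in WT cells (log2 fold change 0.70, SE 0.12, edgeR adjusted p = 1.77e-04). With total counts in place of TMM that response was 0.19 (adjusted p = 0.144), and in limma's fit of log2(TPM + 1) it was 0.15 (adjusted p = 0.293), so the call depends on the scaling. In KO cells the response of Ifnar1 to LPS was -0.14 (SE 0.12, 95% interval -0.40 to 0.12, edgeR adjusted p = 0.323). It was called lower without KOL replicate 2 (-0.31, adjusted p = 0.0127), with total counts (-0.51, adjusted p = 9.70e-04) and in limma's fit of log2(TPM + 1) (-0.64, adjusted p = 8.36e-04). The response in KO minus that in WT was -0.84 (SE 0.17, 95% interval -1.21 to -0.48, edgeR adjusted p = 0.00391), and -1.01 without KOL replicate 2 (adjusted p = 9.20e-05). Between stimulated groups, KOL against WTL was -0.20 (95% interval -0.46 to 0.06, edgeR adjusted p = 0.21), or -0.36 without KOL replicate 2 (adjusted p = 0.00743).

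Ifnar2, the chain that binds type I interferon most tightly and carries JAK1, lies on chromosome 16 at 91372783 to 91405589 (plus strand). Normalized counts were 674, 761.5 and 764 in WT and 1540.2, 1381 and 1275 in WTL. KO libraries had 691, 688 and 660.5, and KOL libraries 919, 827 and 955. The stimulated groups did not overlap with each other or with the unstimulated ones, whereas KO and WT libraries overlapped.

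LPS raised Ifnar2 1.91-fold in WT cells (log2 fold change 0.93, SE 0.09, edgeR adjusted p = 3.26e-07) and 1.32-fold in KO cells (0.41, SE 0.09, edgeR adjusted p = 8.17e-04). In limma's fit of log2(TPM + 1) these responses were 0.19 (adjusted p = 0.146) and 0.09 (adjusted p = 0.493), and with total counts the KO response was 0.03 (adjusted p = 0.751). Ifnar2 was lower in KOL than in WTL by 3 of 3 libraries (log2 fold change -0.63, SE 0.09, 95% interval -0.82 to -0.45, edgeR adjusted p = 3.05e-05), with -0.34 in limma's fits of log2(TPM + 1) (adjusted p = 0.0351, or 0.065 without the filter). The response in KO minus that in WT was -0.52 (SE 0.12, edgeR adjusted p = 0.0086), but -0.40 without WT replicate 1 (adjusted p = 0.0596) and -0.10 in limma's fit of log2(TPM + 1) (adjusted p = 0.738); it was not past the threshold with glmTreat, nor was the KO response. At rest, KO against WT was -0.11 (95% interval -0.29 to 0.08, edgeR adjusted p = 0.33).

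The balance of the type I receptor chains was read as the TPM of Ifnar1 divided by that of Ifnar2. It was 1.05, 0.84 and 0.99 in WT and 1.70, 1.66 and 1.85 in KO, without overlap (difference of means 0.77, exact permutation p = 0.1, two-sided, the smallest p that 3 against 3 allows). In WTL the ratio was 1.04, 0.94 and 0.83, and in KOL 0.93, 1.49 and 0.79, with KOL replicate 2 apart from the others. These stimulated groups overlapped (exact permutation p = 0.9), and KOL lay below KO throughout (difference -0.66, exact permutation p = 0.1).

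Ifngr1, the chain that binds interferon gamma, lies on chromosome 10 at 19591949 to 19610229 (plus strand). Its normalized counts were 1358, 1325 and 1354 in WT and 512.5, 460.4 and 499 in WTL. In KO they were 1243, 1189.6 and 1247, and in KOL 585, 725 and 609. The 6 stimulated libraries were all lower than the 6 unstimulated ones, KOL libraries were all above WTL libraries, and KO libraries were all under WT libraries by a small margin.

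LPS lowered Ifngr1 2.74-fold in WT cells (log2 fold change -1.46, SE 0.08, 95% interval -1.63 to -1.28, edgeR adjusted p = 1.66e-09). In KO cells it lowered the gene 1.92-fold (log2 fold change -0.94, SE 0.08, edgeR adjusted p = 1.45e-07). With total counts these responses were -1.97 in WT and -1.31 in KO, and in limma's fit of log2(TPM + 1) -1.96 and -1.42, all past the threshold. The response in KO minus that in WT was 0.52 (SE 0.12, 95% interval 0.27 to 0.76, edgeR adjusted p = 0.00708). Ifngr1 was higher in KOL than in WTL (log2 fold change 0.38, SE 0.08, edgeR adjusted p = 0.00198), though neither of these passed with glmTreat or in limma's unfiltered fit of TPM, and 0.28 without KOL replicate 2 (adjusted p = 0.00528). Unstimulated KO against WT was -0.13 (95% interval -0.30 to 0.04, edgeR adjusted p = 0.188). That difference passed the threshold with total counts (-0.24, adjusted p = 0.0288) and in a fit of the compared groups alone (-0.13, adjusted p = 0.0104).

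Ifngr2, the signaling chain that carries JAK2, lies on chromosome 16 at 91547072 to 91565623 (plus strand). Its normalized counts were 1148, 1053 and 1057 in WT and 1329.8, 1376 and 1387.5 in WTL. In KO they were 1472, 1447 and 1426, and in KOL 1598, 1313 and 1667. WT libraries were the lowest, WTL and KO libraries stood above them without overlap, and KOL replicate 2 fell below the other KOL libraries and below every KO library.

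CTCF depletion raised Ifngr2 1.33-fold in unstimulated cells (log2 fold change 0.42, SE 0.08, edgeR adjusted p = 0.00103), with 0.38 in limma's fit of log2(TPM + 1) (adjusted p = 0.0785) and no call with glmTreat. With LPS, Ifngr2 was 1.26-fold higher in WTL than in WT (log2 fold change 0.33, SE 0.08, edgeR adjusted p = 0.00374), a direction that flipped with total counts (-0.18, adjusted p = 0.0869) and in limma's fit of log2(TPM + 1) (-0.01, adjusted p = 0.947). Without WT replicate 2 or WT replicate 3 the value was 0.23 in both (adjusted p = 0.067 and 0.0642), and with glmTreat it was not past the threshold. The response in KO cells was 0.08 (95% interval -0.10 to 0.26, edgeR adjusted p = 0.438), which was 0.17 without KOL replicate 2 (adjusted p = 0.0356) and turned to -0.30 with total counts (adjusted p = 0.00878) and to -0.33 in limma's fit of log2(TPM + 1) (adjusted p = 0.0789). KOL against WTL was 0.16 (95% interval -0.02 to 0.34, edgeR adjusted p = 0.138), or 0.26 without KOL replicate 2 (adjusted p = 0.00575). The response in KO minus that in WT was -0.25 (95% interval -0.51 to 0.00, edgeR adjusted p = 0.166).

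**Figure D2:**
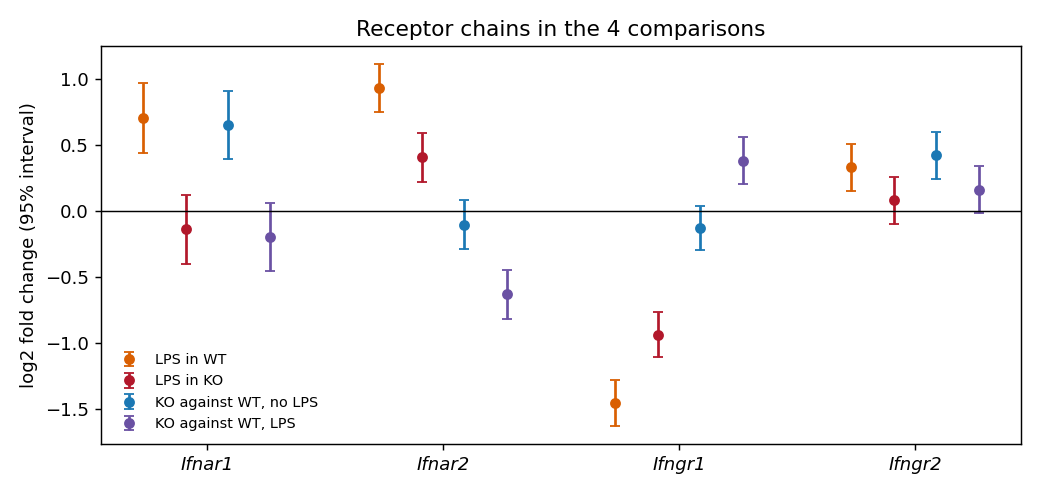
Log2 fold change (edgeR, TMM scaling) of the 4 receptor genes for LPS in WT cells, LPS in KO cells, and KO against WT without and with LPS (points, estimates; bars, 95% intervals, n = 3 per group). Ifngr1 fell with LPS by 1.46 in WT and by 0.94 in KO, and the rise of Ifngr2 with LPS in WT cells (0.33) turns to -0.18 under total-count scaling and to -0.01 in limma's fits of TPM.

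Between the chains of the interferon gamma receptor, the TPM of Ifngr1 divided by that of Ifngr2 was 2.15, 2.30 and 2.5 in WT and 0.61, 0.49 and 0.64 in WTL. It was 1.5, 1.39 and 1.71 in KO, and 0.55, 1.09 and 0.58 in KOL. Ifngr1 had the higher level in every unstimulated library and the lower one in every stimulated library except KOL replicate 2. The ratio fell by 1.74 from WT to WTL and by 0.80 from KO to KOL, and KO differed from WT by -0.78 (exact permutation p = 0.1 for each, the smallest possible). KOL and WTL overlapped (difference 0.16, exact permutation p = 0.7), and without KOL replicate 2 the remaining KOL values lay within the WTL range.

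Levels were compared between genes in TPM (mean ± SD, n = 3). In WT cells Ifngr1 was highest at 74.6 ± 3.55 TPM, Ifnar2 (47.5 ± 4.26) and Ifnar1 (45.3 ± 1.49) overlapped, Ifngr2 followed at 32.3 ± 3.57, and Ifnb1 was last at 0.58 ± 0.21. In KO cells Ifnar1 (69.3 ± 2.25 TPM) and Ifngr1 (64.6 ± 5.16) overlapped at the top, Ifngr2 (42.2 ± 1.83) and Ifnar2 (40.0 ± 2.00) overlapped next, and Ifnb1 was at 0. After LPS, WTL had Ifnar2 (54.3 ± 3.27 TPM) and Ifnar1 (50.99 ± 8.30) overlapping at the top, then Ifngr2 (31.9 ± 1.32), and Ifnb1 (19.0 ± 1.88) and Ifngr1 (18.5 ± 2.29) overlapping at the bottom. In that group the RNA of the ligand thus reached the level of Ifngr1. KOL had overlapping ranges from Ifnar1 (44.4 ± 7.62 TPM) through Ifnar2 (43.0 ± 6.79) and Ifngr2 (34.1 ± 8.50) to Ifngr1 (23.5 ± 2.68), each with the next, and Ifnb1 lower at 14.8 ± 3.17.

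Against the other genes, Ifngr1 had a higher TPM than 92.7% of the 22262 genes with a TPM above 0 in WT and than 79.8% of 22326 such genes in WTL. For Ifnb1 these shares were 38.5% in WT and 80.1% in WTL. Ifnar1 exceeded 88.1% of genes in WT and 92.5% of 22176 in KO. Ifnar2 kept between 87.3% (KO) and 90.8% (WTL), and Ifngr2 between 83.9% (WT) and 87.9% (KO).

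The genes most alike in pattern were found among 9338 tested genes by the root mean square difference of log2 normalized counts, centred per gene, over the 12 libraries. For Ifnb1 they were Rsad2 (0.49), Ptgs2 (0.50) and Plat (0.55), where the root mean square of Ifnb1 itself was 3.11. Ifnb1 was at 0 in all KO libraries, where its log2 value depends on the amount added to the counts. Its distances, and the order of these genes, are therefore not exact. The genes closest to Ifnar1 were Emp1 (0.092), Nrp2 (0.096) and Dync1h1 (0.097), against 0.309 for Ifnar1 itself. Ifnar2 was closest to Actr3 (0.108), Prkx (0.108) and Sept11 (0.113), against 0.411 for Ifnar2 itself. Ifngr1 had Jmy (0.112), Polk (0.112) and Fli1 (0.133), against 0.621, and Ifngr2 had 9530068E07Rik (0.060), Cstb (0.068) and Gde1 (0.073), against 0.203. None of these genes is another of the 5, and Prkx, for example, averaged 705, 1423, 672 and 958 normalized counts in WT, WTL, KO and KOL where Ifnar2 averaged 733, 1399, 679.9 and 900.4.

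The type I chains, Ifngr2 and the interleukin-10 receptor chain Il10rb are neighbours on the plus strand of chromosome 16. From the start of Ifnar2 to the end of Ifngr2 is 192.8 kb, with gaps of 0.6 kb between Ifnar2 and Il10rb, 59.4 kb between Il10rb and Ifnar1, and 39.6 kb between Ifnar1 and Ifngr2. The closest neighbour of Ifnar2 moved in the same direction wherever both were called: the log2 fold change of Il10rb was 0.72 for WTL against WT (SE 0.07, edgeR adjusted p = 3.19e-07), against 0.93 for Ifnar2, and neither passed in limma's fits of TPM. For KOL against WTL it was -0.41 (SE 0.07, edgeR adjusted p = 1.43e-04; not past the threshold with glmTreat), against -0.63 for Ifnar2. In KO cells LPS gave 0.37 for Il10rb (edgeR adjusted p = 1.92e-04), which turned negative with total counts and in limma's fits of TPM, down to -0.12, and 0.41 for Ifnar2. Ifnar1 and Ifngr2, further along, were instead higher in KO than in WT, by 0.65 and 0.42.

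Of 13 genes of the chromosome 16 region, 11 were tested, the 4 of the receptor cluster included. In WTL against WT 5 were higher and 4 lower (median log2 fold change 0.13), with the member genes Ifnar2, Ifnar1 and Ifngr2 among the higher ones (Ifngr2 flips as stated). In KO against WT 5 were higher and 0 lower (median 0.09), namely Ifnar1, Ifngr2, Gart (0.56, edgeR adjusted p = 1.43e-05), Itsn1 (0.50, edgeR adjusted p = 0.00201) and Cryzl1 (0.23, edgeR adjusted p = 0.0275). Gart was not past the threshold in some of limma's fits of TPM, and Itsn1 was past it in none of them and not with glmTreat. Tmem50b, next to Ifngr2, was at 0.02 in that comparison (edgeR adjusted p = 0.859). For KOL against WTL 2 were higher and 2 lower (median -0.15), for KOL against KO 3 higher and 4 lower (-0.14), and for the interaction 1 positive and 4 negative (-0.25), Ifnar1 and Ifnar2 among the latter. The shares of all tested genes were 30.0% higher and 30.2% lower in WTL against WT, and 22.2% and 22.4% in KO against WT. They were 21.4% and 23.3% in KOL against WTL, 33.6% and 33.9% in KOL against KO, and 8.70% and 8.75% for the interaction. In the interaction Donson, the positive gene, and Il10rb were each lost in 10 of 23 alternatives, Ifnar2 and Itsn1 each in 5. Of these calls only that of Ifnar1 was kept in limma's fits of TPM. Cryzl1, higher in KOL than in WTL, was lost in 7 of 24 alternatives and Gart in 4. The strand-sharing gene Gm21970, which overlaps Ifnar2 and Il10rb, had 0 to 3.69 counts in a library. Donson and Son overlap on opposite strands.

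**Figure D3:**
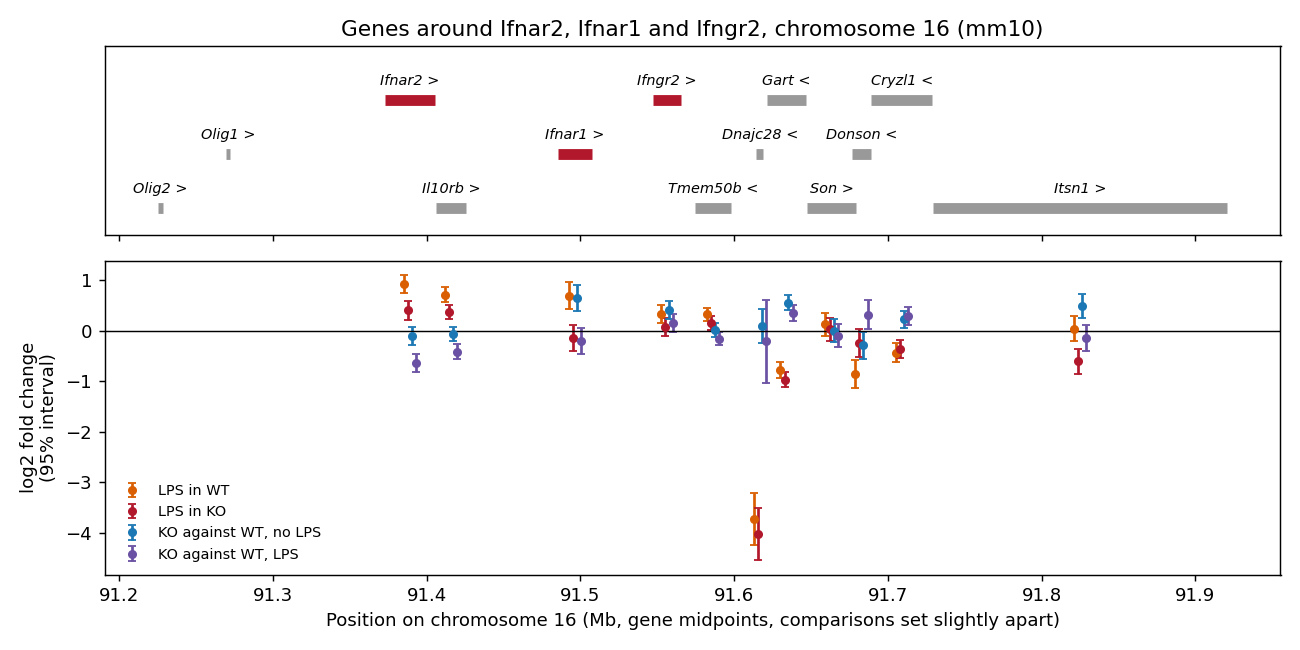
Genes of the receptor cluster region on chromosome 16 (mm10), with each gene drawn to scale above (red, receptor genes described here; arrows, strand) and the log2 fold changes of the tested genes for the 4 comparisons of groups beneath (points, estimates; bars, 95% intervals, n = 3 per group). Ifnar1 (0.65) and Ifngr2 (0.42) were higher in KO than in WT, and Ifnar2 (-0.63) and Il10rb (-0.41) were lower in KOL than in WTL.

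Around Ifngr1 on chromosome 10, 4 of 8 genes were tested. Tnfaip3, a brake on NF-kB signaling, rose with LPS in WT cells (log2 fold change 2.47, SE 0.07, edgeR adjusted p = 1.01e-12) where Ifngr1 fell by 1.46. Counting Ifngr1, 2 were higher and 1 lower in WTL against WT (median 0.46), 1 and 2 in KO against WT (-0.34), 1 and 2 in KOL against WTL (-0.08), 2 and 1 in KOL against KO (0.42), and 1 and 0 for the interaction (0.16), which was Ifngr1 itself. Around Ifnb1 on chromosome 4, the measured genes of the list other than interferons were Mllt3, Focad, Hacd4, Klhl9 and Mtap, all 5 tested. Klhl9 lies among the interferon genes, between Ifnab and Ifnz. Without Ifnb1, 1 was higher and 3 lower in WTL against WT (median -0.34), 0 and 3 in KO against WT (-0.50), 1 and 4 in KOL against WTL (-0.90), 2 and 2 in KOL against KO (-0.20), and 1 and 2 for the interaction (0.14), where other scalings or TPM flip Mllt3 in WTL against WT, Mtap in KOL against KO and Focad in the interaction, a call lost in 19 of 23 alternatives. Other calls were lost too, Hacd4 in the interaction in 12 of 23 alternatives and Mtap in KOL against KO in 7 of 24. Mllt3 was lost in 11 of 24 in WTL against WT and in 7 of 24 in KOL against WTL. Hacd4, the closest of the 5 to Ifnb1, was lower in KO than in WT (log2 fold change -0.85, SE 0.08, edgeR adjusted p = 6.06e-07) and lower in KOL than in WTL (-1.29, SE 0.09, edgeR adjusted p = 6.55e-08), a comparison in which Ifnb1 was at -0.33. Hacd4 and Focad overlap on opposite strands. Over all tested genes, the calls higher and lower were 30.0% and 30.2% in WTL against WT, and 22.2% and 22.4% in KO against WT. KOL against WTL had 21.4% and 23.3%, KOL against KO 33.6% and 33.9%, and the interaction 8.70% and 8.75%.

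The mean transcript length, which RSEM weights by the estimated abundance of each isoform, was looked at for the receptor genes after the values were seen. For Ifnar2, which has 5 annotated coding transcripts of 384 to 3047 bases, it was 1752, 1624 and 1751 bases in WT and 2044, 1911 and 1854 in WTL. In KO it was 1789, 1699.7 and 1762 bases, and in KOL 1617, 1731 and 1478. WTL libraries had the longest estimates, without overlap with WT (difference of means 228 bases, exact permutation p = 0.1) or with KOL (-328 bases, exact permutation p = 0.1). For Ifnar1 the length was lower in KO than in WT by 145 bases of means 3592 and 3737 (exact permutation p = 0.1), and for Ifngr1 and Ifngr2 every pair of groups overlapped.

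Genes that carry the signal of these receptors were read one by one. Stat2, a factor of the type I response, rose with LPS in WT cells (log2 fold change 2.35, SE 0.07, edgeR adjusted p = 2.54e-12), as did Irf9, its partner (1.36, SE 0.06, edgeR adjusted p = 2.29e-10). In KO against WT both were lower, opposite to Ifnar1, with Stat2 at -1.11 (SE 0.07, edgeR adjusted p = 1.85e-08) and Irf9 at -0.92 (SE 0.07, edgeR adjusted p = 4.96e-08). In KOL against WTL Stat2 was at -0.35 (SE 0.07, edgeR adjusted p = 9.62e-04; not past the threshold with glmTreat) and Irf9 at -0.08 (95% interval -0.22 to 0.05). Irf9 had a positive interaction of 0.84 (SE 0.09, edgeR adjusted p = 3.54e-05), where Ifnar1 and Ifnar2 had negative ones. Jak2, which binds Ifngr2, rose with LPS in WT cells (1.23, SE 0.12, edgeR adjusted p = 4.28e-07) and was lower in KO than in WT (-0.50, SE 0.11, edgeR adjusted p = 0.00253; not past the threshold with glmTreat), where Ifngr2 was higher. Jak1, which binds Ifnar2, was at -0.07 for KO against WT (95% interval -0.27 to 0.12), and Tyk2, which binds Ifnar1, was at -0.13 (95% interval -0.29 to 0.02), which passed the threshold with total counts and in limma's fits of TPM.

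Targets of the type I receptor were a list of 20 genes, all tested. Irf7 is also in the list of steps from LPS to Ifnb1, and Usp18 in that of inhibitors. All 20 rose with LPS in WT cells (median log2 fold change 4.26) and all 20 in KO cells (median 4.84), as Ifnb1 did. Rsad2, also among the genes most like Ifnb1 in pattern, rose by 5.60 in WT (SE 0.12, edgeR adjusted p = 6.07e-14) and by 6.48 in KO (SE 0.12, edgeR adjusted p = 2.23e-14). At rest, 15 were lower in KO than in WT and 0 higher (median -0.76), with Oas2 at -2.46 (SE 0.14, edgeR adjusted p = 3.99e-09) and Oas3 at -2.00 (SE 0.10, edgeR adjusted p = 1.65e-09), in the comparison where Ifnar1 was higher. In KOL against WTL 2 were higher and 8 lower (median -0.12), and 15 had a positive interaction and 0 a negative one (median 0.74). By comparison, 30.0% of all tested genes rose with LPS in WT cells and 33.6% in KO cells. KO against WT had 22.2% higher and 22.4% lower, KOL against WTL 21.4% and 23.3%, and the interaction 8.70% and 8.75%.

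Targets of the interferon gamma receptor were 10 genes, all tested. Socs1 is also in the list of inhibitors. All 10 rose with LPS in WT cells (median 4.03) and 9 rose in KO cells (median 4.00), while Ifngr1 fell in both. In KO against WT 0 were higher and 6 lower (median -0.61), and in KOL against WTL 0 were higher and 9 lower (median -0.71), where Ifngr1 itself was higher. Nos2, which makes nitric oxide, was at -2.07 in that comparison (SE 0.11, edgeR adjusted p = 4.47e-09), and Cxcl9, a chemokine for T cells, at -2.04 (SE 0.15, edgeR adjusted p = 9.36e-08). The interaction was positive for 2 and negative for 2 (median -0.21), with Nos2 at -2.02 (SE 0.29, edgeR adjusted p = 3.51e-04). Of these calls, Cxcl10 was lost in 16 of 23 alternatives, Irf1 in 5, Irgm1 in 4 and Nos2 in 0. Several of these genes also respond to NF-kB and to type I interferon. LPS raised 30.0% of all tested genes in WT cells and 33.6% in KO cells. Those higher and lower were 22.2% and 22.4% in KO against WT, and 21.4% and 23.3% in KOL against WTL. The interaction was called positive for 8.70% and negative for 8.75%.

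Inhibitors and phosphatases that act on these receptors were 7 genes, all tested. In WTL against WT 5 were higher and 1 lower (median 0.90), in KO against WT 2 and 2 (0.15), in KOL against WTL 2 and 3 (-0.17), in KOL against KO 5 and 2 (1.36, Ptpn11 flipping with total counts and TPM), and for the interaction 2 and 3 (-0.32). Of these calls, Ptpn11 in KOL against WTL was lost in 14 of 24 alternatives. In the interaction Ptpn11 was lost in 15 of 23 and Ptpn1 in 12 of 23. Usp18, which displaces JAK1 from IFNAR2, rose by 4.21 in WT cells (SE 0.09, edgeR adjusted p = 9.36e-14) and was at -0.12 in KOL against WTL (95% interval -0.29 to 0.05), where Ifnar2 was at -0.63. Socs3 had a negative interaction of -1.11 (SE 0.10, edgeR adjusted p = 5.99e-06). Ptpn1, a phosphatase of TYK2 and JAK2, was higher in KO than in WT (1.62, SE 0.07, edgeR adjusted p = 2.01e-10), as were Ifnar1 and Ifngr2. For all tested genes the shares higher and lower were 30.0% and 30.2% in WTL against WT, and 22.2% and 22.4% in KO against WT. KOL against WTL gave 21.4% and 23.3%, KOL against KO 33.6% and 33.9%, and the interaction 8.70% and 8.75%.

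The steps from LPS to Ifnb1 were a list of 18 genes from Tlr4 to the factors at its promoter, all tested. In WTL against WT 11 were higher and 2 lower (median 0.42), in KO against WT 3 and 4 (-0.12), in KOL against WTL 2 and 10 (-0.27), in KOL against KO 10 and 4 (0.67), and for the interaction 4 and 3 (-0.10). Of all tested genes, 22.2% were higher and 22.4% lower in KO against WT, and 21.4% and 23.3% in KOL against WTL. The shares were 30.0% and 30.2% in WTL against WT, 33.6% and 33.9% in KOL against KO, and 8.70% and 8.75% for the interaction. Cd14, the co-receptor for LPS, was lower in KO than in WT (-0.65, SE 0.07, edgeR adjusted p = 3.27e-06). Irf7 was lower there too (-0.93, SE 0.08, edgeR adjusted p = 3.57e-07), while Ticam2, an adaptor on the path to TRIF, was higher (0.56, SE 0.13, edgeR adjusted p = 0.00233; not past the threshold with glmTreat). In KOL against WTL, where Ifnb1 was at -0.33, Ly96 was at -0.48 (SE 0.11, edgeR adjusted p = 0.00235) and Atf2 at -0.41 (SE 0.08, edgeR adjusted p = 6.63e-04), neither past the threshold with glmTreat. Tank and Ep300, also called lower there, were each lost in 8 of 24 alternatives, glmTreat among them.

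Relatives of the receptor chains in the class II cytokine receptor family were 8 genes, of which Il10ra, Il10rb, Ifnlr1, Il20rb and F3 were tested. In WTL against WT 4 were higher and 1 lower (median 1.04), in KO against WT 1 and 2 (-0.06), in KOL against WTL 1 and 3 (-0.31), in KOL against KO 4 and 1 (0.68, Il10rb flipping as stated), and for the interaction 1 and 2 (-0.20). Of these calls, Il10ra in KOL against WTL was lost in 17 of 24 alternatives, and in the interaction Il20rb was lost in 20 of 23 and Il10rb in 10 of 23. Ifnlr1, the chain for type III interferon, was higher in KO than in WT (log2 fold change 1.23, SE 0.14, edgeR adjusted p = 6.62e-06), as Ifnar1 was. With LPS in WT cells Ifnlr1 was lower (-0.72, SE 0.17, edgeR adjusted p = 0.00204), as Ifngr1 was. Beside these counts, 30.0% of all tested genes were higher and 30.2% lower in WTL against WT, and 22.2% and 22.4% in KO against WT. Shares were 21.4% and 23.3% in KOL against WTL, 33.6% and 33.9% in KOL against KO, and 8.70% and 8.75% for the interaction.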

How the data were processed

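The authors trimmed reads of 100 bases, aligned them to mm10 with STAR (2.5.1 in the processing notes, another version elsewhere) and quantified genes with RSEM. The authors deposited for each gene and library an expected count, which need not be whole, a TPM value, and a mean transcript length in bases. Expected counts were rounded, normalized with TMM and tested with edgeR 4.0.16 (glmQLFit, glmQLFTest) in R 4.3.3, in a single fit of 12 libraries and 4 groups. filterByExpr left 14008 of 55335 genes, and p-values were adjusted over these by Benjamini-Hochberg with a threshold of 0.05 and no fold cutoff. The response to LPS (WTL against WT, KOL against KO), CTCF depletion (KO against WT, KOL against WTL) and their interaction were compared. Where all libraries of a group had 3 counts or fewer the gene was at the floor, and a fold against it is a lower bound. Intervals and floors on counts cover counting error only. Ratios and lengths were compared by exact permutation tests in scipy 1.17.1.

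The members and lists (other ligands, relatives, induction, kinases, feedback, targets, neighbours, markers) were chosen with earlier results of these data known. From a list, genes with a mean of at least 100 normalized counts and among the 4 largest changes past the threshold could be named, as could every gene of a list of at most 8. Tmem50b and Cryzl1 in KO against WT were named after their values were seen. Positions come from GENCODE M21, to which 55154 gene identifiers matched. The labels do not say whether replicates are separate animals or cultures, so p-values measure the spread between these samples. They name depletion of ribosomal RNA where the paper's methods name poly(A) selection with a stranded kit, and whether counting used the strand is not stated, so overlapping genes are named. Alternatives were DESeq2 1.42.0 (size factors, Wald test), fits of log2(TPM + 1) and log2(TPM + 0.1) by limma 3.58.1, other filters, glmTreat against a fold of 1.3, the compared groups alone, a replicate block and leaving out each library. Total counts without TMM and leaving out ribosomal RNA genes were chosen after seeing the data.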

Additional observations from a re-analysis of the deposited data

Results flagged for a closer look

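The response to LPS differed between CTCF-deficient and WT cells for 3 of the 4 receptor genes, by a test of the difference itself, which called 8.70% of all tested genes positive and 8.75% negative. For Ifnar1 the log2 response in KO minus that in WT was -0.84, for Ifnar2 -0.52 and for Ifngr1 0.52. The call for Ifnar2 was lost without WT replicate 1, with glmTreat and in limma's fits of TPM, and that for Ifngr1 with glmTreat and in limma's unfiltered fit of TPM. For Ifnb1, which had 0 counts in unstimulated KO libraries and 11 in WT, the test had an adjusted p of 0.022 and lost its call without WT replicate 3, KO replicate 1 or KO replicate 3, so that a differing response is not supported. No cause was tested.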

How the results depend on the processing

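For the 5 genes, 25 results were recomputed under 24 alternatives, and 543 of 594 values kept their side of the threshold, while 5 reversed where the main fit or the alternative made a call. The cause of the changes was not tested, except that glmTreat asks for more than a fold of 1.3 and that fewer libraries or genes were used where stated.

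In limma's fits with a filter at log2(TPM + 1), at log2(TPM + 0.1), and at log2(TPM + 1) without the filter, Ifngr2 in WTL against WT reversed to -0.01, -0.01 and -0.01, Ifnar1 there was 0.15, 0.16 and 0.15, Ifnar2 there 0.19, 0.20 and 0.19, Ifnar2 in KOL against KO 0.09, 0.09 and 0.09, the Ifnar2 interaction -0.10, -0.10 and -0.10, and Ifngr2 in KO against WT 0.38, 0.39 and 0.38, none of them past the threshold. Ifnar1 in KOL against KO passed at -0.64, -0.65 and -0.64, and Ifngr2 there, with no call, turned to -0.33, -0.34 and -0.33. The interaction of Ifnb1 had an adjusted p of 0.45 and, unfiltered, 0.625. Unfiltered, Ifnar2 (-0.34) and Ifngr1 (0.33) in KOL against WTL and the Ifngr1 interaction (0.54) did not pass. Genes called for the interaction numbered 1552, 1363 and 1311, and listed ones 25 and, unfiltered, 23. With total counts, chosen after seeing the data, Ifngr2 reversed to -0.18 in WTL against WT and to -0.30 in KOL against KO, Ifnar1 in WTL against WT (0.19) and Ifnar2 in KOL against KO (0.03) did not pass, and Ifnar1 in KOL against KO (-0.51) and Ifngr1 in KO against WT (-0.24) did. Ifngr1 in KO against WT also passed at -0.13 with the compared groups alone.

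With glmTreat, genes called were 5251 for WTL against WT, 3069 for KO against WT, 3064 for KOL against WTL and 778 for the interaction, and listed genes 16 for KOL against WTL and 18 for the interaction. Ifnar2 in KOL against KO (0.41) and its interaction (-0.52), Ifngr1 in KOL against WTL (0.38) and its interaction (0.52), and Ifngr2 in WTL against WT (0.33) and KO against WT (0.42) then did not pass, nor did the interaction of Ifnb1 (adjusted p = 0.0508).

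Leaving out each library in turn, genes called for the interaction ranged from 1662 to 3769, the highest without KOL replicate 2, and listed ones from 26, without KO replicate 2, to 45. Ifnb1 ranged from -0.51 to -0.18 in KOL against WTL, and its interaction from an adjusted p of 0.00775 to 0.0522. Ifnar1 ranged from -0.36 to -0.08 in KOL against WTL and from -0.31 to -0.06 in KOL against KO. The Ifnar2 interaction ranged from -0.59 to -0.40. Ifngr2 ranged from 0.23 to 0.35 in WTL against WT, 0.10 to 0.26 in KOL against WTL and 0.01 to 0.17 in KOL against KO.

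With the replicate number as a block, all 25 results kept their side: the interaction was -0.84 for Ifnar1 (adjusted p = 0.00732), -0.52 for Ifnar2 (0.0202) and 0.52 for Ifngr1 (0.0181). As a check of pairing, residuals of libraries with the same number had a median correlation of -0.032 over 18 pairs and others 0.0155 over 36, so that the numbers do not pair the samples. For the 320 results of named list genes, 185 kept their side throughout, 135 changed it under some alternative and 15 reversed under at least 1. The depth limits Ifnb1 at rest, with 11 counts in 3 WT libraries.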
